A study of Mus musculus with 24 samples.

Results

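The 10 genes described here, of 38924 listed in each table, encode the kinases and the exchange factor that control translation through initiation factor eIF2: the 4 eIF2 kinases Eif2ak1, Eif2ak2, Eif2ak3 and Eif2ak4, the phosphorylated subunit Eif2s1 (eIF2α) and the 5 eIF2B subunits Eif2b1 to Eif2b5. They were chosen by gene symbol and not by a cut on their values, with earlier results of these data known. The measurement was ribosome-associated RNA from spinal cords of mice aged 8 weeks, in 24 libraries of 1 mouse each. In the RiboTag method, Cre switches on an HA tag on ribosomal protein Rpl22, and ribosomes that carry the tag are pulled down by antibody together with the mRNA they are reading. The question behind the study was what a dominant mutation of Gars does to the translated mRNA of cholinergic neurons. Gars encodes glycyl-tRNA synthetase, and dominant mutations in it cause a peripheral neuropathy.

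There were 4 groups of 6 mice. C201R mice with Cre carried 1 C201R allele of Gars, 1 tagged Rpl22 allele and 1 copy of Cre at the ChAT locus (Rpl+/-;Chat+/-;C201R+/-). WT mice with Cre had the same Rpl22 and ChAT alleles and C201R+/+, which in these labels stands for no mutant allele. C201R mice without Cre and WT mice without Cre had Chat+/+ in place of Chat+/-, so their pulldowns hold RNA that came down without tagged ribosomes. All mice had the background B6.CgxB6.129. ChAT-Cre is active in cholinergic cells of several kinds, motor neurons among them, and the pulldown is from whole spinal cord.

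eIF2 carries the initiator tRNA to the ribosome in its GTP-bound form, and eIF2B reloads it with GTP after each round. Each kinase senses a different stress and phosphorylates eIF2α, which turns eIF2 into an inhibitor of eIF2B. General translation then slows, while mRNAs such as that of the transcription factor Atf4 are translated more, a program called the integrated stress response. Eif2ak4 (GCN2) is activated by uncharged tRNA and stalled ribosomes, and mutations of the human eIF2B genes cause a disease of brain white matter.

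Libraries held 8.9 to 28.3 M expected counts. Cholinergic markers (7 of the 8 listed were measured) summed to 947 to 1363 CPM in C201R and 854 to 1620 CPM in WT with Cre, against 44.0 to 64.1 CPM in C201R and 50.4 to 253.1 CPM in WT without Cre (CPM, counts after TMM scaling over all libraries to a common total of 1 M). Chat itself had a median of 67.6 CPM in C201R and 59.2 CPM in WT with Cre, against 1.96 CPM in C201R and 4.25 CPM in WT without Cre. Of the 7 markers, 1 was called between genotypes with Cre, where 4.11% of all genes were: Chodl, a marker of a subset of motor neurons. It had 163.1 to 226.6 CPM in C201R and 250.9 to 482.4 CPM in WT with Cre, without overlap (1.2% of all genes lay wholly below). Its log2 fold change was -1.02 ± 0.14 SE (edgeR quasi-likelihood test, adjusted p = 0.000635), and the median of the 7 was 0.174. Without Cre, Chodl was also lower in C201R but not called (-2.09 ± 0.44 SE). Its levels there were 2.31 to 10.0 CPM in C201R and 9.22 to 60.9 CPM in WT. Mouse 14003-1 (C201R with Cre) and mouse 14701-9 (WT with Cre) stood apart by mitochondrial transcripts, which made up 15.8% and 17.1% of their counts, against at most 6.45% in the other C201R and 3.67% in the other WT libraries with Cre. The share of counts assigned to Gm26924, a model that collects ribosomal RNA, differed by group: its median was 26.9% in C201R and 10.7% in WT with Cre, against 3.13% in C201R and 2.86% in WT without Cre. It was highest in mouse 14003-1 (43.3%) among C201R and in mouse 14701-9 (30.8%) among WT libraries, and C201R mice 14003-4 and 14701-5 had 36.9% and 32.9%. Library numbers fall in 2 runs, called library series, and all these mice are in series 1. With Cre, series 1 held 3 C201R and 2 WT libraries, and the other WT library had 11.9%. Series 2 libraries with Cre had 8.01 to 20.9% in C201R and 7.45 to 11.1% in WT. The part of series in the group difference was not tested. Gars rose in C201R over WT with Cre (log2 fold change 0.80 ± 0.12 SE, edgeR quasi-likelihood test, adjusted p = 0.00204). It does not check the genotype, because the mutation is a base change that gene counts do not see.

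The question for these 10 genes was whether the mutation changed the mRNA of the kinases or of eIF2B in the cholinergic pulldown, where targets of Atf4 rise. With Cre, 0 of the 10 genes passed the test between C201R and WT, against 4.11% of the 14634 genes tested (2.29% higher and 1.82% lower; edgeR quasi-likelihood test, Benjamini-Hochberg adjusted p under 0.05, 6 libraries a group). None of the 10 had an unadjusted p under 0.05, DESeq2 called 0, and limma-voom called 1, Eif2ak4. With a term for the Gm26924 share, 0 of the 10 and 122 of all genes were called. The groups overlapped for each of the 10; over all genes C201R lay wholly above WT for 1.5% and wholly below for 1.2%. In the same libraries all 11 measured genes of the list of ATF4 and its targets were higher in C201R, with a median log2 fold change of 2.48 against -0.0056 over all genes. With libraries scaled by their totals alone, 7 of those 11 were higher. That this list rises was known before the list was set up.

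Eif2ak1 (HRI), the heme-regulated kinase that also answers mitochondrial stress, was the most abundant kinase on the TPM scale (RSEM's abundance unit, which corrects for length). Its TPM was the highest of the 4 in 6 of 6 C201R and 6 of 6 WT libraries with Cre, and in 5 of 6 C201R and 5 of 6 WT libraries without Cre. In CPM it ranged from 23.6 to 83.2 (median 67.9) in C201R and from 56.5 to 89.5 (median 83.1) in WT with Cre. It ranged from 28.4 to 44.9 (median 37.1) in C201R and from 26.8 to 43.3 (median 32.7) in WT without Cre. Mouse 14003-1 was the low C201R library, and the other 5 C201R libraries with Cre lay above all libraries without Cre. Between genotypes with Cre the log2 fold change was -0.26 ± 0.18 SE (95% interval -0.65 to 0.14, edgeR adjusted p = 0.502).

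Eif2ak2 (PKR), the kinase activated by double-stranded RNA and in mice itself induced by interferon, ranged from 6.21 to 23.2 CPM (median 7.83) in C201R and from 8.73 to 15.7 CPM (median 11.4) in WT with Cre. Without Cre it ranged from 16.1 to 25.2 CPM (median 18.3) in C201R and from 8.43 to 30.0 CPM (median 19.1) in WT. Of the WT libraries without Cre, mice 14702-4 and 14702-6 had 8.87 and 8.43 CPM, and the others had 17.2 to 30.0 CPM. The highest C201R library with Cre was mouse 14003-1, and the next reached 12.3 CPM. The log2 fold change between genotypes with Cre was -0.24 ± 0.32 SE (95% interval -0.93 to 0.45, edgeR adjusted p = 0.751). Of the 11 interferon-induced genes listed beside it, 7 were tested with Cre and 0 passed between genotypes, where 4.11% of all genes did. DESeq2 and limma-voom called 0 of them, and 0 had an unadjusted edgeR p under 0.05. Stat2, which carries the interferon signal to the nucleus, had a log2 fold change of -0.22 ± 0.22 SE.

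Eif2ak2 is shown with the pair of matches to the core of the interferon-stimulated response element (GAAANNGAA, searched on both strands) that lie just after its RefSeq start, from positions 19 and 25 counted from 1 at the start. The window is on the minus strand at chr17:78882535-78882562 (GRCm38.p6), and the capitals mark the matches, which overlap each other by the run GAA.

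Eif2ak2: tccgccggGAAAACGAAACAGAAgagaa

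Of all 32851 RefSeq promoter windows of 300 bases (250 before and 50 after the start), 8.56% held this core. Among the 9 members with a window, Eif2ak2 and Eif2s1 held it.

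Eif2ak3 (PERK), the sensor of unfolded protein in the endoplasmic reticulum, ranged from 5.30 to 12.1 CPM (median 9.02) in C201R and from 7.72 to 9.20 CPM (median 8.00) in WT with Cre. Without Cre it ranged from 1.59 to 10.4 CPM (median 3.47) in C201R and from 2.48 to 9.99 CPM (median 6.12) in WT. The WT libraries with Cre lay within the range of the C201R libraries with Cre. Between genotypes with Cre the log2 fold change was 0.13 ± 0.22 SE (95% interval -0.34 to 0.59, edgeR adjusted p = 0.807). Its regulator Hspa5 (BiP), the chaperone that holds it inactive, gave 0.32 ± 0.17 SE (adjusted p = 0.334).

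Eif2ak4 (GCN2), the kinase nearest in function to tRNA charging, held the smallest median share of the 4 on the TPM scale with Cre. It ranged from 1.00 to 5.17 CPM (median 3.09) in C201R and from 3.14 to 5.06 CPM (median 4.50) in WT with Cre. Without Cre it ranged from 3.21 to 21.1 CPM (median 7.04) in C201R and from 4.43 to 15.7 CPM (median 9.57) in WT. With Cre, 5 of 6 C201R libraries lay below the WT median and the groups overlapped. The log2 fold change between genotypes was -0.58 ± 0.34 SE (95% interval -1.31 to 0.14, edgeR adjusted p = 0.386). The limma-voom fit with quality weights put it past the threshold, at -0.79 with an adjusted p of 0.0469. Its activator Gcn1 gave -0.038 ± 0.20 SE (adjusted p = 0.947) and Impact, which competes for Gcn1, gave 0.43 ± 0.15 SE (adjusted p = 0.116).

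**Figure D1:**
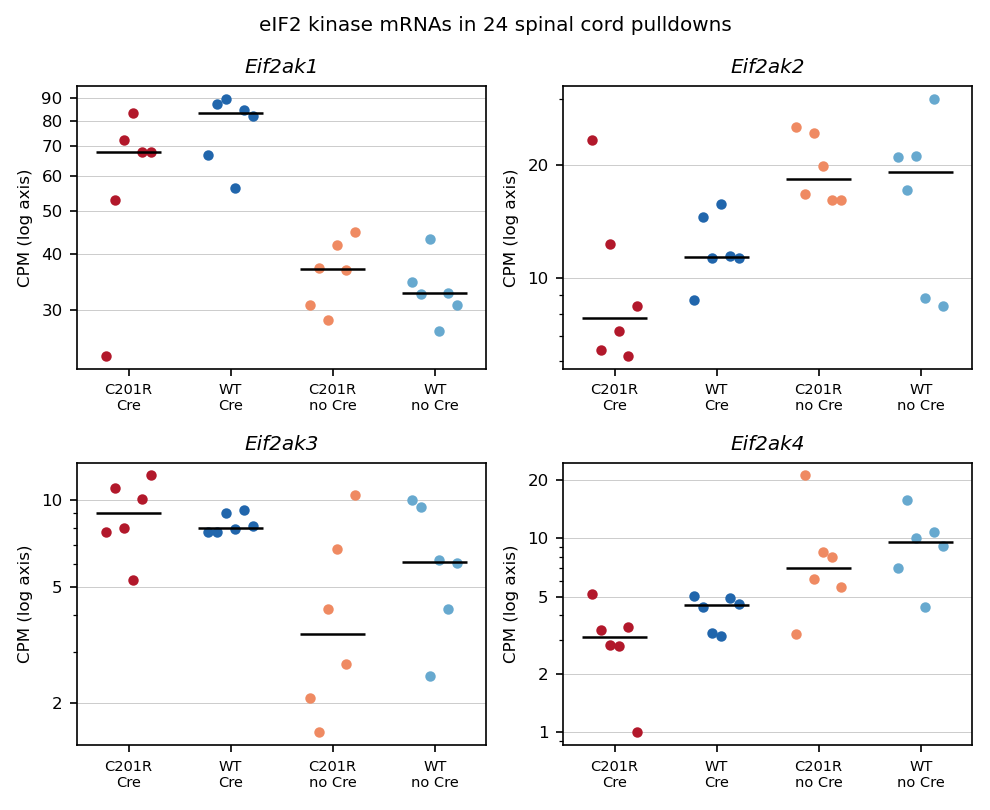
CPM (log axis) of the 4 eIF2 kinases in each library, by group; each point is 1 mouse and each bar the group median. Eif2ak1 has higher medians with Cre (67.9 and 83.1 CPM) than without (37.1 and 32.7 CPM), the medians of Eif2ak2 and Eif2ak4 are lower, and the C201R and WT points overlap in every panel.

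Eif2s1 encodes eIF2α, the subunit all 4 kinases phosphorylate. It ranged from 20.1 to 44.5 CPM (median 23.4) in C201R and from 9.14 to 40.1 CPM (median 33.5) in WT with Cre. Without Cre it ranged from 9.32 to 21.3 CPM (median 18.3) in C201R and from 7.09 to 17.9 CPM (median 14.2) in WT. With Cre 5 of 6 C201R libraries lay below the WT median, and the low WT library was mouse 14701-9. The log2 fold change between genotypes was 0.0098 ± 0.24 SE (95% interval -0.50 to 0.52, edgeR adjusted p = 0.987), and it was -0.19 without mice 14003-1 and 14701-9.

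Of the other eIF2 subunits and the assembly factor Cdc123, 1 of 3 rose in C201R with Cre, where 2.29% of all genes did. Eif2s2 (eIF2β) ranged from 117.5 to 160.5 CPM in C201R and from 89.2 to 104.9 CPM in WT, with no overlap (1.5% of all genes lay wholly above). Its log2 fold change was 0.47 ± 0.11 SE (edgeR adjusted p = 0.0309). The γ subunit Eif2s3x gave 0.18 ± 0.30 SE (adjusted p = 0.799) and Cdc123 gave -0.27 ± 0.13 SE (adjusted p = 0.309).

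The regulatory subunits of eIF2B are Eif2b1 (α), Eif2b2 (β) and Eif2b4 (δ), which bind phosphorylated eIF2α. Eif2b1 ranged from 0.18 to 17.9 CPM (median 9.00) in C201R and from 6.95 to 18.8 CPM (median 13.9) in WT with Cre. The lowest value, in mouse 14003-1, was a single expected count. The log2 fold change between genotypes was -0.61 ± 0.42 SE (95% interval -1.50 to 0.29, edgeR adjusted p = 0.483), the widest interval of the 10.

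Eif2b2 ranged from 12.8 to 17.9 CPM (median 14.03) in C201R and from 7.62 to 17.2 CPM (median 13.9) in WT with Cre. The log2 fold change was 0.17 ± 0.19 SE (edgeR adjusted p = 0.697). Eif2b4 ranged from 8.68 to 34.3 CPM (median 17.9) in C201R and from 7.80 to 20.0 CPM (median 10.2) in WT with Cre. It was above the WT median in 4 of 6 C201R libraries. With Cre, the C201R libraries of library series 1 had 34.3, 28.7 and 22.9 CPM, and those of series 2 had 8.68, 9.90 and 12.9 CPM. The WT libraries of series 1 had 20.0 and 10.7 CPM, and those of series 2 had 7.80 to 12.1 CPM. Library series was a term in the fit. The log2 fold change was 0.45 ± 0.23 SE (95% interval -0.037 to 0.95, edgeR adjusted p = 0.311).

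The catalytic subunits are Eif2b3 (γ) and Eif2b5 (ε), of which ε exchanges the nucleotide. Eif2b5 ranged from 27.9 to 40.0 CPM (median 32.9) in C201R and from 24.5 to 42.6 CPM (median 29.9) in WT with Cre, and had the narrowest interval of the 10. Its log2 fold change between genotypes was 0.052 ± 0.14 SE (95% interval -0.24 to 0.35, a ratio of 0.845 to 1.27, edgeR adjusted p = 0.888). Eif2b3 ranged from 4.87 to 9.23 CPM (median 7.16) in C201R and from 5.51 to 9.71 CPM (median 6.07) in WT with Cre. Its log2 fold change was 0.047 ± 0.20 SE (edgeR adjusted p = 0.933).

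**Figure D2:**
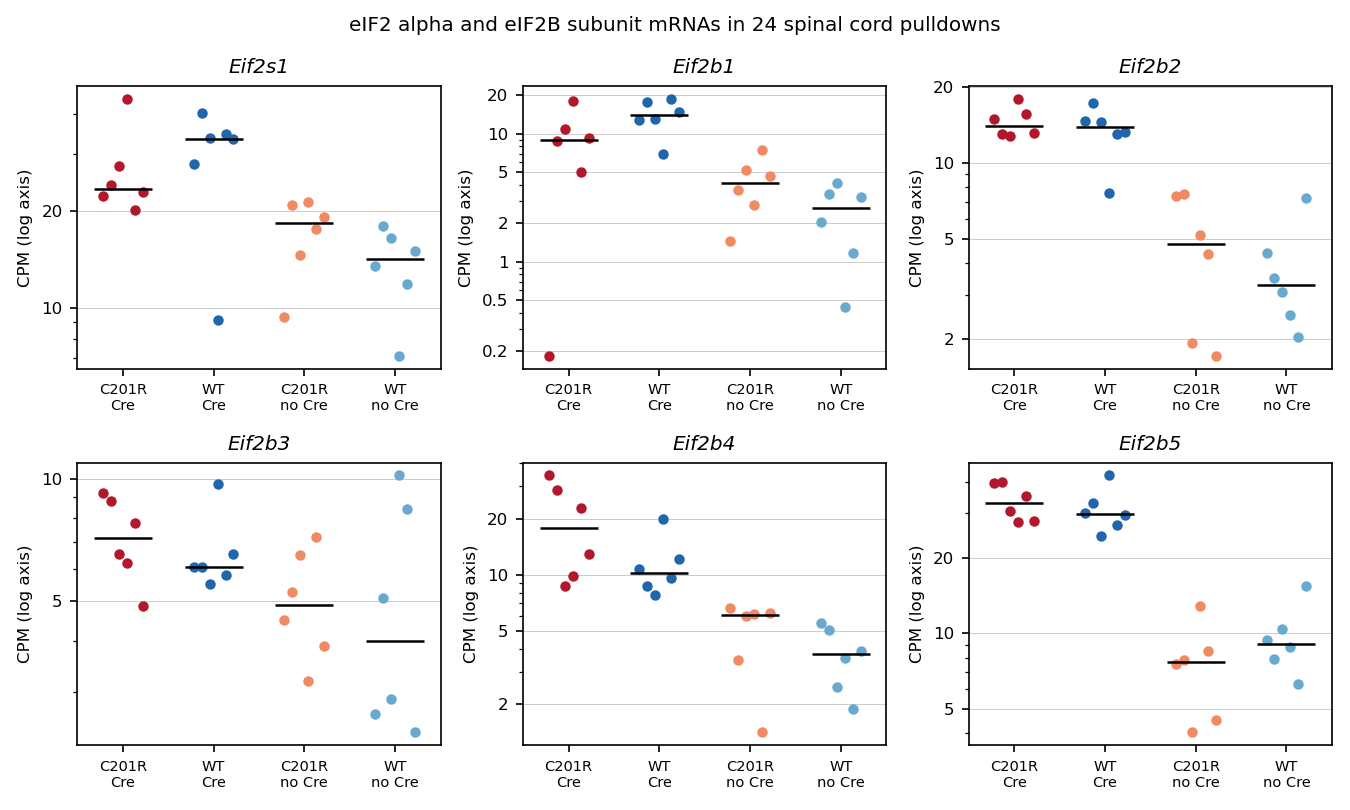
CPM (log axis) of Eif2s1 and the 5 eIF2B subunits in each library, by group; each point is 1 mouse and each bar the group median. Eif2b2, Eif2b4 and Eif2b5 have no overlap between libraries with and without Cre in either genotype. Of all genes, 17.2% in C201R and 18.4% in WT lay wholly above with Cre. The lowest Eif2b5 values with Cre are 27.9 CPM in C201R and 24.5 CPM in WT, and the point at 0.18 CPM in the Eif2b1 panel is mouse 14003-1.

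For genes that act on the same step, the counts of calls between genotypes with Cre stand beside 4.11% of all genes. Of 7 partners and rivals of eIF2 in delivering initiator tRNA, 0 passed, and the 2 most abundant gave -0.0034 ± 0.18 SE (Eif5, which stimulates GTP hydrolysis by eIF2) and 0.073 ± 0.14 SE (Bzw1, which competes with Eif5). Of 5 genes of the eIF2α phosphatase, 0 passed. The 2 most abundant, the catalytic subunits Ppp1cb and Ppp1cc, gave 0.053 ± 0.15 SE and -0.37 ± 0.30 SE, the stress-induced regulatory subunit Ppp1r15a (GADD34) gave -0.31 ± 0.32 SE and the constitutive Ppp1r15b gave 0.27 ± 0.16 SE. Of 9 activators and inhibitors of the kinases, 0 passed, and 1, Impact, had an unadjusted p under 0.05. Dele1 and Oma1, which relay mitochondrial stress to Eif2ak1 in human cells, gave -0.51 ± 0.33 SE and 0.0051 ± 0.35 SE. DESeq2 and limma-voom also called 0 in each of these 3 lists, and in the first 2 no gene had an unadjusted p under 0.05. By contrast the log2 fold changes of Atf4, Nupr1 and Fgf21 were 1.67 ± 0.18 SE, 5.05 ± 0.28 SE and 9.19 ± 0.46 SE (edgeR adjusted p = 9.43e-05, 8.93e-08 and 2.23e-08). The log2 fold changes of the other 8 genes called in the ATF4 list were 3.08 ± 0.43 SE (Phgdh), 2.92 ± 0.33 SE (Atf5), 2.55 ± 0.20 SE (Psph), 2.48 ± 0.11 SE (Psat1), 1.63 ± 0.25 SE (Ddit3), 1.58 ± 0.26 SE (Chac1), 1.22 ± 0.23 SE (Sesn2) and 0.78 ± 0.16 SE (Asns). Phgdh, Psat1 and Psph make serine, and Asns makes asparagine. Fgf21, a secreted hormone, ranged from 18.9 to 74.2 CPM in C201R and from 0 to 0.14 CPM in WT with Cre, so its fitted fold change depends on the prior count. Phosphorylation, which sets the activity of these kinases, was not measured.

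Without Cre, 0 of the 10 genes passed between C201R and WT, and 0% of 14400 genes did (455 genes, none of the 10, had an unadjusted p under 0.05; DESeq2 called 2 genes and limma-voom 1, none of them among the 10). The log2 fold changes of the 10 lay between -0.48 (Eif2ak3, ± 0.48 SE) and 0.78 (Eif2b1, ± 0.56 SE), with an adjusted p of 1 for each. The groups overlapped for each of the 10, and were apart for 0.118% of genes with C201R above and 0.0621% with C201R below. The test of whether the genotype change differed with and without Cre called 0 of the 10, against 0.13% of 16109 genes, 0.0993% higher and 0.031% lower (0 of the 10 by DESeq2 and limma-voom, and 0 at an unadjusted p under 0.05). The farthest from 0 was Eif2b1, at -1.30 ± 0.70 SE (95% interval -2.74 to 0.14, edgeR adjusted p = 0.604). Of the 11 genes of the ATF4 list, 6 were called higher in that test, which uses the same libraries with Cre as the comparison above.

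**Figure D3:**
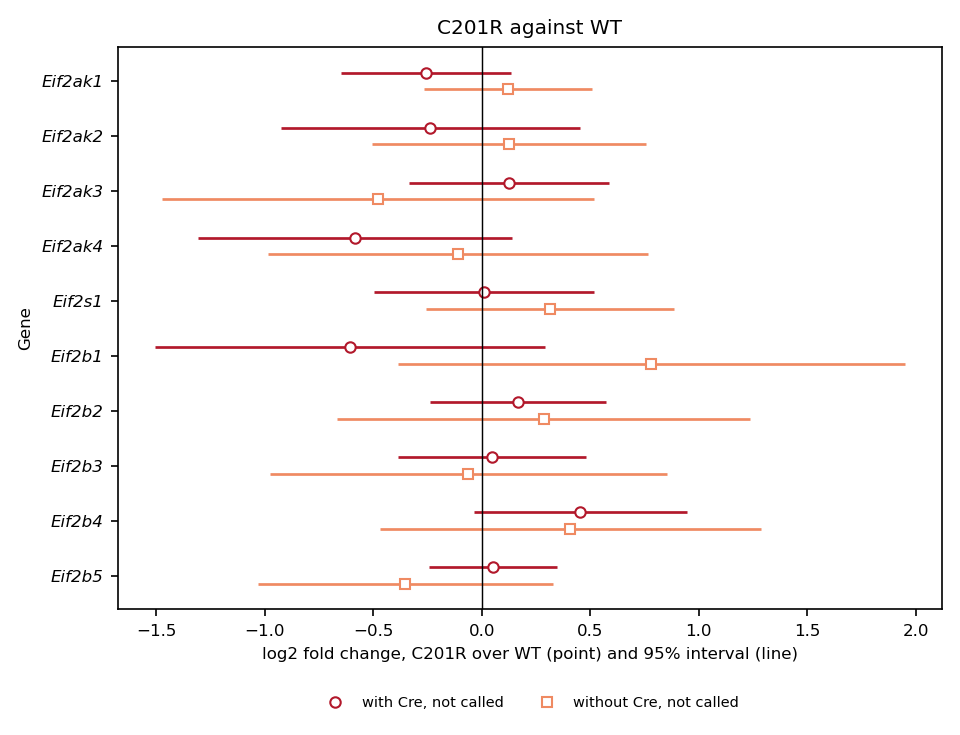
Log2 fold change of C201R over WT for each of the 10 genes, with Cre (circles) and without Cre (squares); lines are 95% intervals and open symbols mark genes that did not pass the test. Every interval crosses 0, and the widest with Cre are those of Eif2b1 (-1.50 to 0.29) and Eif2ak4 (-1.31 to 0.14).

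The larger differences were between pulldowns with and without Cre, that is, between mRNA on tagged ribosomes of cholinergic cells and the background. In C201R, 6 of the 10 genes were higher with Cre and 2 lower, so 8 of 10 were called against 56.8% of the 14335 genes tested (30.5% higher and 26.3% lower). In WT, 6 were higher and 1 lower, so 7 of 10 against 60.6% of 14264 (27.7% higher and 32.8% lower). The same 6 genes rose in both genotypes: Eif2ak1, Eif2s1, Eif2b1, Eif2b2, Eif2b4 and Eif2b5. With a term for the Gm26924 share, 3 of them were called in C201R and 6 in WT: in C201R Eif2s1 (0.88, edgeR adjusted p = 0.0676), Eif2b1 (2.22, adjusted p = 0.0569) and Eif2b4 (0.65, adjusted p = 0.344) were not. With the prefix of the mouse number as a block, 4 were called in C201R, where Eif2ak1 (0.71, adjusted p = 0.0734) and Eif2b1 (1.40, adjusted p = 0.128) were not, and 5 in WT, where Eif2s1 (0.75, adjusted p = 0.153) was not. With Cre above no Cre and no overlap were 3 genes in C201R (17.2% of all genes were) and 5 in WT (18.4%). They were Eif2b2, Eif2b4 and Eif2b5 in both genotypes, and also Eif2ak1 and Eif2b1 in WT. Wholly below in either genotype lay 0 of the 10 (13.5% and 13.7% of all genes). The median log2 fold change of the 10 genes was 1.00 in C201R and 1.02 in WT, against 0.065 and -0.097 over all genes. Within library series 2, the larger of the 2 runs of library numbers, the counts were again 6 higher and 2 lower in C201R and 6 higher and 1 lower in WT, and 0 between genotypes with Cre. Series 1 holds 1 library without Cre in each genotype and was not fitted alone. Without mice 14003-1 and 14701-9 the counts were 6 higher and 2 lower in C201R and 6 higher and 2 lower in WT. The shares of all genes called, given above, belong to the first fit and not to these refits. In pulldowns of this kind fewer cells of a type and less RNA per cell cannot be told apart.

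Eif2b5 had the largest change in C201R: its log2 fold change with Cre over no Cre was 2.07 ± 0.28 SE in C201R (edgeR adjusted p = 9.22e-06) and 1.50 ± 0.22 SE in WT (adjusted p = 3.06e-05). Without Cre it had ranged from 4.03 to 12.8 CPM in C201R and from 6.26 to 15.4 CPM in WT, all below the libraries with Cre. Within library series 2 alone it was 1.88 in C201R and 1.37 in WT. Eif2b1 gave 1.51 ± 0.52 SE in C201R (adjusted p = 0.0201) and 2.38 ± 0.43 SE in WT (adjusted p = 0.000185). Its levels without Cre were 1.45 to 7.51 CPM in C201R and 0.44 to 4.16 CPM in WT. In C201R its call was lost without C201R mouse 14004-5 with Cre (1.33, adjusted p = 0.0827) or C201R mouse 14003-2 without Cre (1.36, adjusted p = 0.0727).

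Eif2b2 rose by 1.59 ± 0.36 SE on the log2 scale in C201R (adjusted p = 0.00103) and by 1.70 ± 0.31 SE in WT (adjusted p = 0.000228). Without Cre it had 1.72 to 7.51 CPM in C201R and 2.04 to 7.23 CPM in WT. Eif2b4 rose by 1.45 ± 0.36 SE in C201R (adjusted p = 0.00257) and by 1.33 ± 0.30 SE in WT (adjusted p = 0.00112), with levels without Cre of 1.42 to 6.59 CPM in C201R and 1.89 to 5.48 CPM in WT. Eif2b3, the partner of Eif2b5 in the catalytic part, was the eIF2B subunit that did not pass: 0.41 ± 0.35 SE in C201R (95% interval -0.32 to 1.13, adjusted p = 0.324) and 0.091 ± 0.40 SE in WT (95% interval -0.76 to 0.94, adjusted p = 0.859). Its levels without Cre, 3.18 to 7.19 CPM in C201R and 2.38 to 10.2 CPM in WT, overlapped those with Cre. The ratio of Eif2b5 to Eif2b3 counts, which does not depend on scaling, ranged from 4.32 to 5.75 in C201R and from 4.38 to 5.43 in WT with Cre. It ranged from 0.622 to 4.03 in C201R and from 0.741 to 6.47 in WT without Cre, so it was narrow with Cre and wide without it. Counts were also smaller without Cre: 27 to 115 for Eif2b3 and 23 to 194 for Eif2b5, against 50 to 266 and 216 to 1443 with Cre. The part of count noise in the width was not tested.

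On the TPM scale Eif2b5 held the largest median share of the summed eIF2B TPM in each group: 43.7% in C201R and 39.2% in WT with Cre, and 24.7% in C201R and 35.3% in WT without Cre. Eif2b3 held the smallest median share in WT with Cre, at 8.16%, and Eif2b1 in C201R with Cre, at 9.12% against 15.3% in WT. The summed TPM of the 5 subunits had medians of 125 in C201R and 155 in WT with Cre, against 46.1 in C201R and 50.1 in WT without Cre. Effective lengths estimated by RSEM changed between libraries (from 472 to 1863 bases for Eif2b1), and TPM changed with them.

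Among the kinases, Eif2ak1 was the 1 that rose: 0.91 ± 0.22 SE in C201R (edgeR adjusted p = 0.00217) and 1.08 ± 0.16 SE in WT (adjusted p = 3.03e-05), a fold of 1.88 and 2.11. Eif2s1 rose by about as much, 0.91 ± 0.23 SE in C201R (adjusted p = 0.00308) and 0.96 ± 0.30 SE in WT (adjusted p = 0.0112). Eif2ak4 was lower with Cre in both, by -1.58 ± 0.57 SE in C201R (adjusted p = 0.0241) and -1.36 ± 0.31 SE in WT (adjusted p = 0.00131). Eif2ak2 was lower in C201R, at -0.99 ± 0.34 SE (adjusted p = 0.0197), and gave -0.74 ± 0.32 SE in WT (adjusted p = 0.0574). Eif2ak3 passed in neither, at 1.09 ± 0.48 SE in C201R (95% interval 0.084 to 2.09, adjusted p = 0.0602) and 0.19 ± 0.31 SE in WT (adjusted p = 0.604). Gcn1 fell with Cre too, by 1.04 ± 0.23 SE on the log2 scale in C201R and by 1.14 ± 0.24 SE in WT (adjusted p = 0.000927 and 8e-04).

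The calls of Eif2ak4 and Eif2ak2 depended on scaling. With library totals in place of TMM, which moved the median of all genes to 0.64 in C201R and 0.84 in WT, 8 of the 10 genes were higher and 0 lower in each genotype: Eif2ak3 and Eif2b3 were then called higher. Eif2ak4 gave -0.97 (adjusted p = 0.154) in C201R and -0.39 (adjusted p = 0.366) in WT, both below the shifted median, and Eif2ak2 gave -0.52 in C201R and 0.23 in WT. Of all genes tested, 5657 of 14335 were then called higher and 2284 lower in C201R. In WT 6881 of 14264 were called higher and 2441 lower. Thus 71.2% of all calls in C201R and 73.8% in WT were in the higher direction, against 53.7% and 45.8% with TMM. In C201R the call of Eif2ak4 was lost when any of C201R mice 14004-2, 14004-5 or 14703-4 with Cre (-1.56, -1.54 and -1.14) or mouse 14003-3 without Cre (-1.15) was left out. That of Eif2ak2 was lost without mouse 14004-5 (-0.87) or 14703-4 (-0.93), and in WT Eif2ak2 was called without mouse 14701-9 with Cre (-0.81) or without mouse 14702-4 (-0.86) or 14702-6 (-0.74) without Cre. Eif2ak3 was called higher in C201R without mouse 14004-5 with Cre (1.39) or 14702-9 without Cre (1.36).

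Ratios of counts within a library do not depend on scaling. There were 4.56 to 68.1 Eif2ak1 counts for each Eif2ak4 count (median 22.6) in C201R and 13.2 to 27.6 (median 17.9) in WT with Cre. Without Cre there were 1.77 to 9.55 (median 4.80) in C201R and 2.07 to 6.03 (median 3.85) in WT. The WT ranges with and without Cre did not overlap, and the C201R ranges overlapped through mouse 14003-1. In shares of the summed kinase TPM, Eif2ak1 had medians of 74.3% in C201R and 76.5% in WT with Cre, against 51.1% in C201R and 50.1% in WT without Cre. Eif2ak4 had medians of 3.21% in C201R and 3.97% in WT with Cre, against 8.01% in C201R and 13.9% in WT without Cre, and Eif2ak2 had 9.62% in C201R and 10.6% in WT with Cre, against 27.5% in C201R and 24.7% in WT without Cre.

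**Figure D4:**
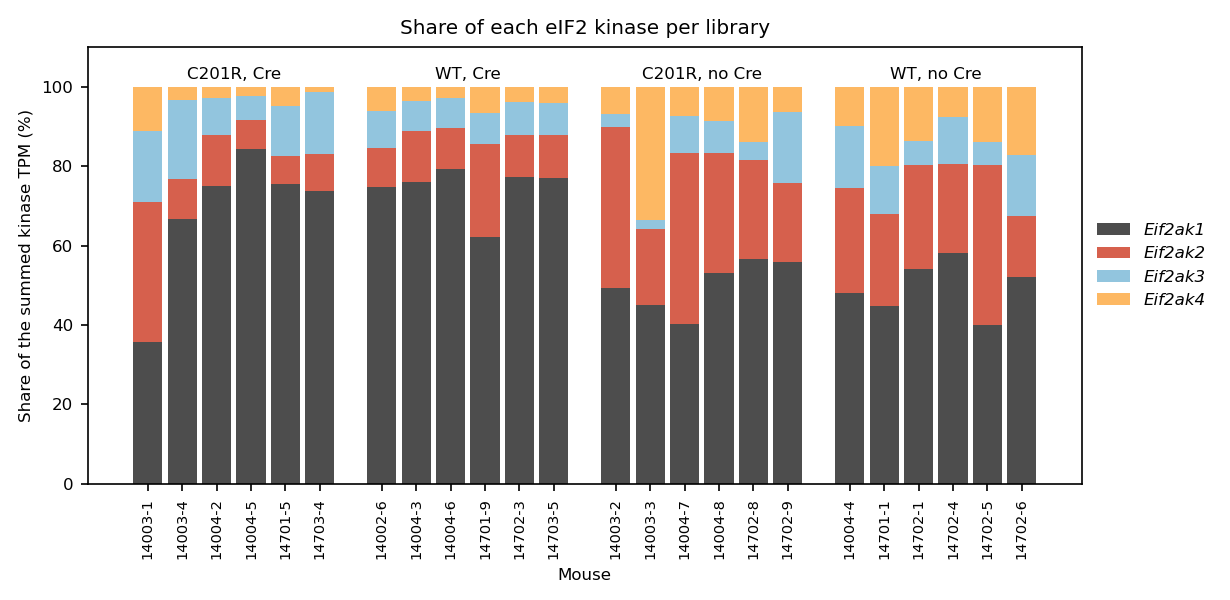
Share of the summed kinase TPM (percent) held by each eIF2 kinase in each library, grouped by genotype and Cre; each bar is 1 mouse. Eif2ak1 holds most of each bar with Cre except in mouse 14003-1 (35.7%, beside 35.2% Eif2ak2), and the median shares of Eif2ak2 (9.62% in C201R and 10.6% in WT with Cre, against 27.5% and 24.7% without) and Eif2ak4 are lower with Cre, with overlap between libraries except for Eif2ak4 in WT.

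Markers of other cells moved with Cre beside these genes. The 8 oligodendrocyte markers summed to 570 to 835 CPM in C201R and 501 to 1105 CPM in WT with Cre, against 5123 to 7760 CPM in C201R and 4825 to 8715 CPM in WT without Cre. The 8 astrocyte markers summed to 334 to 554 CPM in C201R and 304 to 532 CPM in WT with Cre, against 2227 to 2867 CPM in C201R and 2117 to 2599 CPM in WT without Cre. Markers of microglia (7 of 8 measured) had median sums of 24.1 CPM in C201R and 16.0 CPM in WT with Cre, against 54.1 CPM in C201R and 44.4 CPM in WT without Cre. Those of endothelium (6 of 6) had 9.82 CPM in C201R and 9.13 CPM in WT with Cre, against 82.8 CPM in C201R and 79.7 CPM in WT without Cre. The 8 markers of other spinal neurons had median sums of 149 CPM in C201R and 117 CPM in WT with Cre, against 504 CPM in C201R and 458 CPM in WT without Cre. Mitochondrial transcripts took 3.0 to 15.8% of counts in C201R and 1.2 to 17.1% in WT with Cre, against 35.2 to 49.6% in C201R and 42.0 to 55.5% in WT without Cre. The 6 erythroid markers, listed because Eif2ak1 is abundant in red cell precursors, summed to 22.7 to 492 CPM in C201R and 26.6 to 184 CPM in WT with Cre. Without Cre they summed to 107 to 1659 CPM in C201R and 103 to 1487 CPM in WT. Between genotypes with Cre their median log2 fold change was 1.15, and 0 of 6 were called. Of the 6, 4 had an unadjusted edgeR p under 0.05, DESeq2 called 3 and limma-voom 0. The part of other cells in the rise of Eif2ak1 and in the falls of Eif2ak2 and Eif2ak4 was not tested. Of the interferon-induced genes, 2 of 8 tested fell with Cre in C201R (Rsad2, -2.34 ± 0.57 SE, and Oasl2, -1.12 ± 0.45 SE), where 26.3% of all genes did. There, in either direction, DESeq2 called 5, limma-voom called 7, and 5 had an unadjusted edgeR p under 0.05. The median log2 fold change of the list was -1.26 in C201R and -1.62 in WT. The test of whether the genotype change differed with and without Cre called 0 of 8. In WT 6 of 7 fell, where 32.8% of all genes did, and 1 rose; the 6 were Rsad2 (-2.35 ± 0.52 SE), Irf9 (-2.07 ± 0.42 SE), Ifit1 (-1.75 ± 0.60 SE), Ifit3 (-1.62 ± 0.54 SE), Oasl2 (-1.43 ± 0.39 SE) and Stat2 (-0.96 ± 0.25 SE). Of the 8 astrocyte markers, 1 was called higher in C201R than in WT with Cre, where 2.29% of all genes were. It was Aldoc (0.58 ± 0.15 SE, edgeR adjusted p = 0.0428), and the median log2 fold change of the 8 was -0.194. Between Cre and no Cre in C201R, Aldoc was not called (-0.36 ± 0.25 SE), while the other 7 fell.

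**Figure D5:**
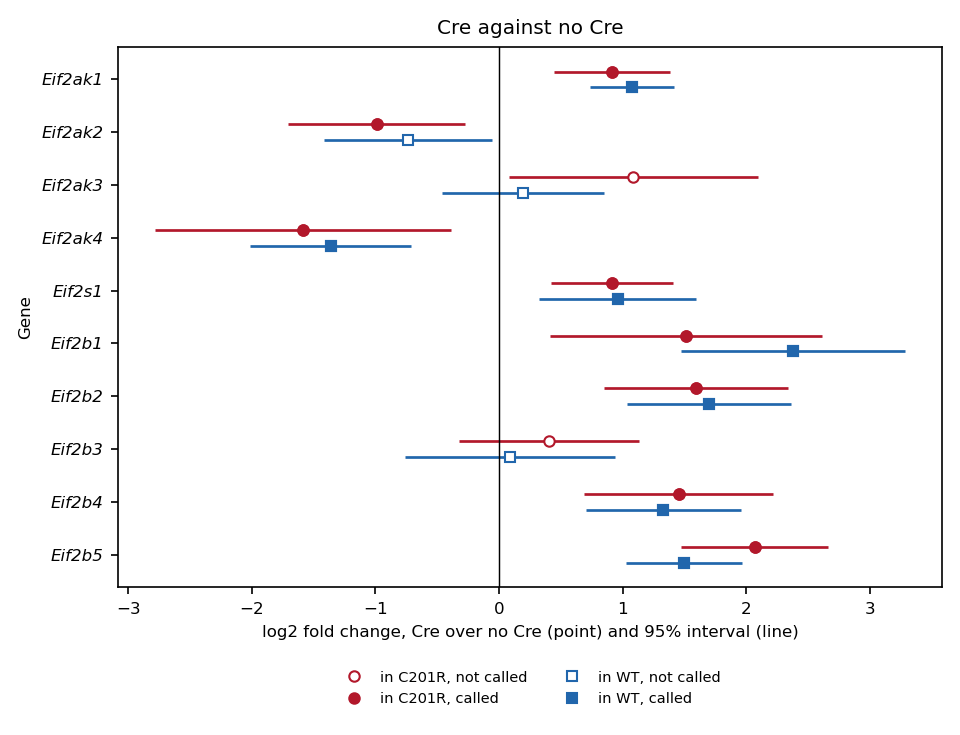
Log2 fold change of Cre over no Cre for each of the 10 genes, in C201R (circles) and WT (squares); lines are 95% intervals, filled symbols genes that passed the test and open ones genes that did not. The 6 genes to the right with filled symbols in both genotypes include 4 of the 5 eIF2B subunits, and Eif2ak4 lies to the left in both (-1.58 and -1.36), a direction kept but not called with library totals.

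For the genes around this step, the counts with Cre stand beside 30.5% of all genes higher and 26.3% lower in C201R, and 27.7% higher and 32.8% lower in WT. Of the other eIF2 subunits and Cdc123, 3 of 3 rose in C201R and 2 of 3 in WT, namely Eif2s2 (1.75 ± 0.21 SE in C201R and 1.09 ± 0.16 SE in WT), Cdc123 (0.83 ± 0.18 SE and 1.26 ± 0.20 SE) and, in C201R, Eif2s3x (1.01 ± 0.33 SE; 0.37 ± 0.23 SE in WT). Of the 7 partners and rivals of eIF2, 5 rose in C201R and 5 in WT: Mcts1 (2.33 ± 0.33 SE in C201R and 2.12 ± 0.26 SE in WT) and Denr (1.63 ± 0.28 SE and 1.73 ± 0.31 SE), which form a dimer that helps recycle ribosomes, Eif5 (1.50 ± 0.21 SE and 1.02 ± 0.20 SE), Bzw1 (1.38 ± 0.20 SE and 1.08 ± 0.22 SE) and Eif2a (0.98 ± 0.24 SE and 0.72 ± 0.18 SE). Of 5 phosphatase genes, 2 rose in C201R, and 3 rose and 1 fell in WT: the catalytic subunits Ppp1ca (1.88 ± 0.39 SE in C201R and 1.44 ± 0.25 SE in WT) and Ppp1cb (0.69 ± 0.19 SE and 0.45 ± 0.19 SE) rose in both, and in WT Ppp1cc rose (0.85 ± 0.21 SE) and Ppp1r15b fell (-0.68 ± 0.21 SE). Of 9 kinase regulators, 4 rose and 1 fell in C201R, and 2 rose and 1 fell in WT. Hspa5 rose in both (1.55 ± 0.26 SE and 1.03 ± 0.21 SE), as did Nck1 (1.64 ± 0.35 SE and 0.99 ± 0.21 SE), an adaptor that binds Eif2ak3. In C201R Impact (0.72 ± 0.24 SE) and Prkra (1.54 ± 0.42 SE), an activator of Eif2ak2, rose too; they gave 0.0061 ± 0.17 SE and 0.72 ± 0.40 SE in WT. Of the ATF4 list, 11 of 11 rose with Cre in C201R, by 1.31 (Phgdh) to 5.89 (Fgf21). In WT 3 of 10 rose (Chac1, 2.78 ± 0.37 SE, Asns, 2.06 ± 0.18 SE, and Atf4, 0.72 ± 0.21 SE) and 3 fell (Phgdh, -2.16 ± 0.58 SE, Atf5, -1.16 ± 0.40 SE, and Psat1, -0.85 ± 0.20 SE). These comparisons share their libraries with Cre with the genotype comparison.

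The 250 bases before the RefSeq starts of 4 members (build GRCm38.p6) are printed to show the numbers of CCAAT boxes, a common promoter element bound by NF-Y, that were found among the members: the most in Eif2ak3, 0 in Eif2ak4, and 1 each in Eif2ak1 and Eif2b5. Capitals mark each CCAAT on either strand. The windows lie at chr5:143817542-143817791, chr6:70844265-70844514, chr2:118388367-118388616 (the first of the pair of starts listed for this gene) and chr16:20498567-20498816, each on the plus strand.

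Eif2ak1: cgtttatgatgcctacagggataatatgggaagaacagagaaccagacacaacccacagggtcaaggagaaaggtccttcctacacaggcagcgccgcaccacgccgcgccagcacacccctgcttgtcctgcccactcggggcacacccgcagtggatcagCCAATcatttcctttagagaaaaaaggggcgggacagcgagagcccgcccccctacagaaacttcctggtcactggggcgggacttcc

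Eif2ak3: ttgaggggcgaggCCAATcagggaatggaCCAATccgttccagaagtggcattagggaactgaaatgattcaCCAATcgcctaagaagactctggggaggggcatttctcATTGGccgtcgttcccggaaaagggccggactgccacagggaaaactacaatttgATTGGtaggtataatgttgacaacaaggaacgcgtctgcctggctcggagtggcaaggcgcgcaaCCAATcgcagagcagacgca

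Eif2ak4: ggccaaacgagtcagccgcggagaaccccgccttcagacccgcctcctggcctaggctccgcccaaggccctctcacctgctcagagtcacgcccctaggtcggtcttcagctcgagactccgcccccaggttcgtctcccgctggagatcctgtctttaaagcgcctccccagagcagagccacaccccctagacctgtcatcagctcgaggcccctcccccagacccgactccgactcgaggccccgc

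Eif2b5: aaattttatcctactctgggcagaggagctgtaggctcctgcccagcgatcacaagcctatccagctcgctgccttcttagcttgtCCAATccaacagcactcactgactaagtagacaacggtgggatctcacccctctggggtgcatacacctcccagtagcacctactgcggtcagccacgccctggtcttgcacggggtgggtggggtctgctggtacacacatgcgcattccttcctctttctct

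Eif2ak3 held 6 CCAAT boxes in these 250 bases, a number reached by 0.0578% of the windows listed. Eif2ak1, Eif2b2, Eif2b4 and Eif2b5 held 1 each, and Eif2ak2, Eif2ak4, Eif2s1 and Eif2b1 held 0. Over the whole window of 300 bases, 5 of 9 members had a CCAAT, as did 37.4% of all windows. The ETS core CCGGAAG was found in Eif2ak1, Eif2b2 and Eif2b4 (8.86% of all windows). The C/EBP-ATF element TGATGNAAN, bound by ATF4, was in 0 of 9 (3.95% of all windows), and the cAMP element TGACGTCA in 0 of 9 (1.79%). Both strands were searched, and apart from the pair in Eif2ak2 no matches overlapped. A match is a run of letters and not a measured site.

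Over the 24 libraries, each member was set beside the 1 gene with the most similar profile among 7056 genes with a mean of at least 10 CPM (Pearson r of log2 CPM, a description in which the points share depth, scaling and the Cre difference). For Eif2ak1 it was Gsk3a (r = 0.976), for Eif2b5 Cpeb1 (0.973), for Eif2b4 Cox5a (0.949), for Eif2b1 Gm14295 (0.938) and for Eif2b2 Nfe2l1 (0.932). For Eif2s1 it was Apoo (0.911), for Eif2ak2 Pak2 (0.852), for Eif2ak4 Cc2d2a (0.824), for Eif2ak3 Cdkn2d (0.817) and for Eif2b3 Ppp1r8 (0.736). Eif2b3 had the lowest such value of the 10.

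Reads were not equally certain for the members. Expected counts of Eif2ak1 and Eif2ak2 were fractional in 23 and 24 libraries, that is, part of their reads had been divided among genes, while those of Eif2ak3, Eif2ak4, Eif2b1, Eif2b2, Eif2b3 and Eif2b5 were whole in all 24. In the GENCODE M21 annotation, exons of Eif2ak1 overlap those of Aimp2 and Ankrd61 on the opposite strand, and Eif2b4 overlaps Snx17. Eif2ak2 overlaps Gm26637 and n-R5s29, and Eif2ak3 overlaps Gm43292, also on the opposite strand. The labels do not say whether counting used strand. Counts of Eif2b1 were under 10 in 4 libraries, and its median of 60.5 over all 24 libraries was the lowest of the 10.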

How the data were processed

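Ribosome-associated RNA was sequenced from 24 spinal cord pulldowns. The authors deposited, per gene and library, expected counts and TPM; the submitters' processing notes name Bowtie2 2.2.0 and RSEM 1.2.12. Build, annotation and strand setting: not given in the sources used here. Of the identifiers, 37607 matched GENCODE M21, which updated 2 symbols. No pair of libraries agreed within sampling noise.

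Expected counts were rounded to whole numbers, passed through filterByExpr, and put on a common scale by TMM. The test was the robust quasi-likelihood F test of edgeR 4.0.16 in R 4.3.3, with library series as a term. Each comparison used its own 12 libraries and the interaction all 24. Library numbers fall in 2 runs, called library series 1 (7 libraries) and 2 (17); what they stand for is not in the labels. Adjusted p-values (Benjamini-Hochberg, over all genes tested) under 0.05 are called. SE is the log2 fold change over the square root of F. CPM in the text is scaled over all 24 libraries, and fold changes come from each comparison's own fit, so their ratios differ. The deposited TPM were rescaled to a sum of 1 M without mitochondrial genes and Gm26924. The test was run on simulated counts to check that planted changes were found in the right direction. These counts had a common dispersion, and no series effect, difference in Gm26924 share or outlying library. The simulation therefore does not show how many false calls the real libraries give.

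The members, lists and the libraries named as standing apart were chosen with earlier results of these data known. All 10 members are named. Of the pathway lists the called genes are named, or, between genotypes with none called, the 2 most abundant; for the kinase regulators, Ppp1r15a and Ppp1r15b, the genes named without a call were chosen after their values were seen, and of the cell type markers those called between genotypes are named. RefSeq promoters (GRCm38.p6) matched 9 of the 10 by symbol; Eif2b3 had none. Alternatives were RLE scaling, library totals, no or stricter filter, DESeq2 1.42.0, limma-voom (limma 3.58.1), other terms, and subsets of libraries. The values of 1 interferon-induced gene, counted in its list, are not reported here.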

Additional observations from a re-analysis of the deposited data

Results flagged for a closer look

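In 5 of 40 sets of 6 libraries (10 genes in 4 groups) the highest library stood apart from the rest by Dixon's criterion, which chance alone meets in about 1 in 20 sets. Eif2ak2 reached 23.2 CPM in C201R mouse 14003-1 with Cre, where the next library had 12.3 CPM. Eif2ak4 reached 21.1 CPM in C201R mouse 14003-3 without Cre, with the next at 8.45 CPM. Eif2s1 reached 44.5 CPM in C201R mouse 14004-5 with Cre, with the next at 27.6 CPM. In WT mouse 14701-9 with Cre, Eif2b3 reached 9.71 CPM, with the next at 6.55 CPM, and Eif2b4 reached 20.0 CPM, with the next at 12.1 CPM. Mice 14003-1 and 14701-9 are also those with the highest Gm26924 share in their groups (43.3% and 30.8%); its part in these values was not tested.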

How the results depend on the processing

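Between genotypes with Cre, 0 members were called under each alternative except limma-voom, which called 1 lower (Eif2ak4). The number of all genes called, 601, was 32 with library totals, 1315 with DESeq2, 2004 with limma-voom, 291 with no library series term, 75 with a replicate block on mouse number prefix, 122 with a term for the Gm26924 share, 1370 in library series 2, 1950 without mice 14003-1 and 14701-9, 178 in the fit on all 24 libraries, and 170 to 936 with single libraries left out. Without Cre, 0 genes were called, and 6 with no filter, 2 with DESeq2, 1 with limma-voom, 1 with the block and 2 in the fit on all 24 libraries. For the interaction, 21 genes became 1 with library totals, 115 with DESeq2, 79 with limma-voom, 6 with the block, 8 with the Gm26924 term, 43 without mice 14003-1 and 14701-9, and 11 to 37 with single libraries left out. For Cre against no Cre in C201R, members called lower (2) were 0 with library totals, 1 with the block, 1 with the Gm26924 term, and 0 to 2 with single libraries left out, and members called higher (6) were 3 with the Gm26924 term, where 4602 of all genes were called, and 5 to 7 with single libraries left out. In WT, members called lower (1) were 0 with library totals, 0 with the Gm26924 term, 2 with the stricter filter, 2 with limma-voom, 2 with no library series term, 2 without mice 14003-1 and 14701-9, and 1 to 2 with single libraries left out. The cause of these shifts was not tested.

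The prefix of the mouse numbers is not said in the labels to mark a litter or day, and the replicate block was fitted on it only as an alternative: in C201R, Eif2ak1 (0.71, edgeR adjusted p = 0.0734), Eif2ak2 (-0.79, 0.144) and Eif2b1 (1.40, 0.128) were then not called, and in WT Eif2s1 (0.75, 0.153). With the Gm26924 term, Eif2ak2 (-1.39), Eif2s1 (0.88), Eif2b1 (2.22) and Eif2b4 (0.65) were not called in C201R, nor Eif2ak4 (-0.82) in WT. With no library series term Eif2b1 was not called in C201R (1.09).

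No called member changed sign in any of the 1350 refits of single members; 68 uncalled values did. With Cre between genotypes these log2 fold changes were -0.14 (Eif2ak3), -0.32 (Eif2s1), -0.14 (Eif2b2), -0.17 (Eif2b3) and -0.19 (Eif2b5) with library totals; Eif2s1 -0.032 with no filter, -0.13 with limma-voom, -0.13 with no library series term, -0.16 in series 2, -0.19 without mice 14003-1 and 14701-9 and -0.050 in the fit on all 24; Eif2ak3 -0.10 with limma-voom, -0.098 with the Gm26924 term and -0.0059 in series 2; Eif2b3 -0.12 with the block, -0.080 with the Gm26924 term and -0.016 in series 2; Eif2b5 -0.078 with the block and -0.067 with the Gm26924 term. Without Cre they were Eif2ak2 -0.038 and Eif2b3 0.29 with limma-voom, Eif2ak2 -0.044, Eif2ak3 0.0033, Eif2b2 -0.27 and Eif2b3 0.20 with the block, and Eif2ak4 0.10 with the Gm26924 term and 0.25 in series 2. For Cre in WT they were Eif2ak2 0.23 with library totals and Eif2b3 -0.19 with the Gm26924 term. For the interaction they were Eif2b3 -0.087 and Eif2b4 -0.21 with library totals, Eif2b3 -0.27 and Eif2b4 -0.015 with limma-voom, Eif2b2 0.061 and Eif2b3 -0.021 with the block, Eif2s1 0.0091, Eif2b2 0.011, Eif2b3 -0.046 and Eif2b4 -0.34 with the Gm26924 term, and Eif2b3 -0.012 and Eif2b4 -0.31 in series 2. With single libraries left out, the ranges that crossed 0 were, with Cre, Eif2ak3 -0.020 to 0.28, Eif2s1 -0.20 to 0.20, Eif2b3 -0.068 to 0.14 and Eif2b5 -0.032 to 0.13; without Cre, Eif2ak2 -0.024 to 0.38, Eif2ak4 -0.58 to 0.26 and Eif2b3 -0.23 to 0.24; for Cre in WT, Eif2b3 -0.029 to 0.38; and for the interaction, Eif2b2 -0.50 to 0.045, Eif2b3 -0.23 to 0.27 and Eif2b4 -0.12 to 0.22.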
